A study of Mus musculus with 5 samples.

Results

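A set of 10 genes that act in the Hippo pathway, or are controlled by it, was followed in murine lung cancer-associated fibroblasts (CAFs). They were *Yap1*, *Wwtr1*, *Tead1*, *Lats2*, *Ajuba*, *Amotl2*, *Ccn1*, *Ccn2*, *Ankrd1* and *Axl*. They were listed by name as pathway members and targets, with earlier results of these data known, and made up 10 of the 21835 genes of the table, matched by Ensembl identifier. CAF-200 cells overexpressed miR-200a, miR-200b and miR-429, delivered by lentivirus in the vector pLVX-Neo, and had been under G418 selection for over 2 weeks, as the labels give it (3 samples). The study's cell culture methods instead name the vector pLVX-Hyg, put into lung fibroblasts (LFs), while its results and RNA sequencing methods name CAFs. Which vector the sequenced CAFs carried was not settled here. CAF-vec cells were the vector controls, whose genotype the labels give as WT control (2 samples). Both were cultured cells of the lung cell line labelled CAF, and RNA was sequenced as stranded mRNA libraries. Nothing in the labels or methods says whether the samples of a group came from separate cultures or infections, so the p-values measure only the spread between these samples, which may be technical. RNA came from whole cultures, in which fewer cells that express a gene and less RNA per cell cannot be told apart.

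The Hippo pathway is a kinase cascade that limits tissue growth. MST kinases (genes *Stk3* and *Stk4*) activate the LATS kinases, which phosphorylate the coactivators YAP (*Yap1*) and TAZ (*Wwtr1*) and so keep them in the cytoplasm. When LATS is inactive, as on stiff matrix or in spread cells, YAP and TAZ enter the nucleus, bind the TEAD transcription factors and switch on genes such as *Ccn1*, *Ccn2* and *Ankrd1*. In fibroblasts of tumors and scars, YAP is known for its part in contraction and matrix remodeling. The transcript levels measured here do not report the phosphorylation or the location of YAP and TAZ.

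The 3 overexpressed miRNAs carry 2 seeds, shown because they define the sites sought in the 3'-UTRs. Mature mouse sequences are from RefSeq (GRCm38.p6, chromosome 4, minus strand), written 5′ to 3′ with the seed, bases 2 to 8, in capitals. miR-200b and miR-429 have 1 seed in common, and that of miR-200a differs from it.
mmu-miR-200a-3p: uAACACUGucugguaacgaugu
mmu-miR-200b-3p: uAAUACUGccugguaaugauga
mmu-miR-429-3p: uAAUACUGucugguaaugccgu

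Matches to the seeds (CAGTGTT for miR-200a, CAGTATT for miR-200b and miR-429, sense strand only) were counted in the longest annotated 3'-UTR of each gene. Of the 10 genes, 6 held at least 1 match, whereas 30.3% of the 12055 tested genes with an annotated 3'-UTR did. The median 3'-UTR length was 1617 bases for the 10 genes and 1174 bases for all. *Yap1* and *Lats2* each held 2 matches, *Wwtr1*, *Tead1*, *Amotl2* and *Ankrd1* each held 1, and *Ccn1*, *Ccn2*, *Axl* and *Ajuba* held none. The sites of the coactivators, of *Lats2* and of *Ankrd1* are shown in windows of 30 bases, sense strand 5′ to 3′, with the match in capitals (GRCm38), so that the letters can be set beside the values that follow.
*Yap1*, miR-200a, chr9:7933493-7933499, minus strand: gggagggtgggCAGTGTTatagaaagggct
*Yap1*, miR-200a, chr9:7932096-7932102, minus strand: gttgtgtccagCAGTGTTtaatgcttcctg
*Wwtr1*, miR-200a, chr3:57456857-57456863, minus strand: acaaaacttgaCAGTGTTactatatttaaa
*Lats2*, miR-200b and miR-429, chr14:57691121-57691127, minus strand: ctgcattaaaaCAGTATTtttaaaaaatta
*Lats2*, miR-200b and miR-429, chr14:57689822-57689828, minus strand: attgtgacttaCAGTATTctcgctattttg
*Ankrd1*, miR-200b and miR-429, chr19:36112485-36112491, minus strand: tttcatagcacCAGTATTcaggctttcatg

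Genes with a match went in both directions, and whether a match goes with direction was not tested. Over all tested genes with an annotated 3'-UTR, the median log2 fold-change was -0.07 with a match and -0.11 without. Among the 6 genes with a match, *Ankrd1* was higher in all CAF-200 samples. *Amotl2*, *Yap1* and *Lats2* were lower in all of them without passing the test described below, and the groups overlapped for *Wwtr1* and *Tead1*. Of all tested genes, 37.3% were lower and 24.3% higher in every CAF-200 sample. *Ajuba*, which fell, held no match. A match is a description of the letters and not a measured site.

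Values are normalized and in CPM, that is, counts brought to a common total. The table holds no counts, and sequencing depth is therefore unknown. Differences were tested with limma on log2(CPM + 0.5) for the 12175 genes that reached 0.5 CPM in 2 samples or more. A gene rose or fell where its adjusted p was under 0.01. The CAF-vec samples differed from each other more than the CAF-200 samples did, with an SD of the log2 difference over tested genes of 0.49 against 0.19 to 0.20. The table treats zeros differently in the groups. No gene was at 0 in some but not all CAF-200 samples, 6127 were at 0 in all 3, and 1205 were at 0 in 1 of the 2 CAF-vec samples. Values above 0 but under 0.005 CPM numbered 1108, 816 and 1051 in CAF-200 replicates 1 to 3 and 0 in both CAF-vec samples. How the table was made is not given in enough detail to tell whether this bears on the smaller spread between CAF-200 samples, and its part in that spread was not tested. The 10 genes lay far above that range, between 34.3 and 1116 CPM, and all passed the filter. Among 10 fibroblast markers 9 were tested, with a summed level of 8840 to 15332 CPM in CAF-vec cells and 8309 to 8977 CPM in CAF-200 cells. Of these 9, *Dcn*, *Lum* and *Thy1* rose and none fell. The collagen genes *Col1a1* and *Col1a2* and the receptor gene *Pdgfrb* were lower in every CAF-200 sample without passing the test (log2 fold-changes -0.91, -0.75 and -0.25). *Fn1* was higher in every CAF-200 sample, also without passing it (log2 fold-change 0.44, limma adjusted p = 0.045), and *Pdgfra* and *Vim* overlapped. *Fap*, a marker of activated fibroblasts, was under the filter. None of the 7 epithelial or 5 endothelial markers passed the filter, with sums of at most 0.452 and 1.06 CPM in any sample, and 2 and 1 of them were listed at 0 in all samples. The 5 leukocyte markers, 2 of them at 0 in all samples, summed to 7.23 to 7.32 CPM in CAF-vec cells and 4.72 to 5.93 CPM in CAF-200 cells. The 4 pericyte and muscle markers summed to 5.05 to 6.60 and 4.24 to 4.88 CPM. *Msln*, a marker of mesothelial cells, fell (log2 fold-change -1.97, adjusted p = 0.0029), and the sum of the 3 mesothelial markers was 5.92 to 6.89 CPM in CAF-vec cells and 1.09 to 1.54 CPM in CAF-200 cells, with 1 of the 3 at 0 in all samples. The part of these markers in the values of the 10 genes was not tested. *Zeb1*, a well-known miR-200 target, was 43.5 and 50.7 CPM in CAF-vec cells and 37.8, 37.5 and 34.1 CPM in CAF-200 cells, a difference that did not pass the test (adjusted p = 0.050). *Zeb2*, the other known target, overlapped between the groups, with 46.2 and 29.8 CPM against 31.9, 31.8 and 31.1 CPM.

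Of the 10 genes, *Ccn1* and *Ankrd1* rose, *Ajuba* fell, and 7 did not pass the test. None of the 10 passed it in fits on 2 of the 3 CAF-200 samples, in which at most 1 of all tested genes did, and 3 fell and 3 rose in either fit on 1 CAF-vec sample, in which 1994 fell and 1598 rose of all 12032 tested genes (without replicate 1) or 3766 fell and 2329 rose of 12035 (without replicate 2). With all 5 samples, of all tested genes, 4.45% rose and 5.57% fell, 10.0% in either direction. At an adjusted p under 0.05, 2 of the 10 genes were higher and 2 lower, beside 11.9% and 18.6% of all tested genes. None of the 10 combined an adjusted p under 0.01 with a log2 fold-change beyond 1, which 2.37% of all tested genes did upward and 2.35% downward. By their bare values, 2 genes were higher and 4 were lower in every CAF-200 sample than in both CAF-vec samples, and 4 overlapped. Over all tested genes these shares were 24.3% higher and 37.3% lower. The median log2 fold-change of the 10 genes was 0.06, beside -0.09 over all tested genes.

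**Figure D1:**
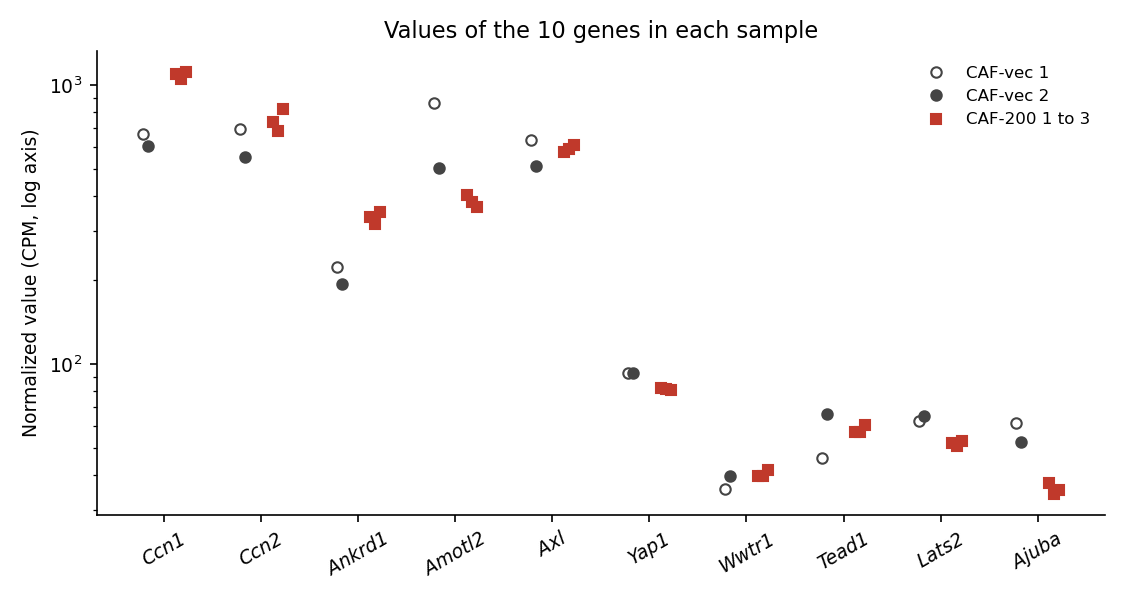
Normalized value in CPM (log axis) of each of the 10 genes in each sample, with CAF-vec samples as circles (replicate 1 open) and CAF-200 samples as squares. *Ccn1* and *Ankrd1* are higher in all 3 CAF-200 samples, *Ajuba*, *Amotl2*, *Lats2* and *Yap1* are lower, and the groups overlap for *Ccn2*, *Axl*, *Wwtr1* and *Tead1*.

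Neither gene of the 2 coactivators passed the test. *Yap1* (ENSMUSG00000053110, chr9:7931999-8004596, minus strand, GRCm38) encodes YAP. Its value was 93.2 and 92.6 CPM in CAF-vec cells and 82.4, 81.7 and 80.5 CPM in CAF-200 cells. All 3 CAF-200 samples were below both CAF-vec samples by a small margin, and the log2 fold-change of -0.19 (SE 0.08) did not pass the test with limma (adjusted p = 0.12). It was -0.09 after centring on the sample median, a scaling that moves the median of all genes from -0.09 to 0.00. *Wwtr1* (ENSMUSG00000027803, chr3:57455649-57575910, minus strand) encodes TAZ, the paralog of YAP. It was 35.6 and 39.7 CPM in CAF-vec cells and 39.6, 39.6 and 41.7 CPM in CAF-200 cells. The groups overlapped, with a log2 fold-change of 0.10 and a 95% interval of -0.13 to 0.32.

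The log2 fold-changes of the 2 coactivators had different signs, and the ratio of *Yap1* to *Wwtr1* CPM was lower in every CAF-200 sample. It was 2.62 and 2.33 in the CAF-vec samples and 2.08, 2.06 and 1.93 in the CAF-200 samples, with no overlap. The ratio was not tested.

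*Tead1* (ENSMUSG00000055320, chr7:112679318-112906807, plus strand) encodes a TEAD factor through which YAP and TAZ reach DNA. Its value was 46.0 and 66.3 CPM in CAF-vec cells and 57.2, 56.9 and 60.6 CPM in CAF-200 cells. The CAF-200 values lay between the CAF-vec values, so the sign of the difference turned on 1 control sample. The log2 fold-change was 0.08 with all samples, -0.19 without CAF-vec replicate 1 and 0.34 without CAF-vec replicate 2, where it passed the test (limma adjusted p = 0.0044). In fits that leave out a CAF-vec sample, the lone CAF-vec sample is assumed to vary like the CAF-200 samples.

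The other TEAD genes did not pass the test either. *Tead2*, a paralog of *Tead1*, was 77.7 and 60.5 CPM in CAF-vec cells and 93.4, 89.8 and 94.7 CPM in CAF-200 cells (log2 fold-change 0.43, adjusted p = 0.049). *Tead3* was 67.7 and 65.9 CPM against 51.2, 49.7 and 47.0 CPM (log2 fold-change -0.44, adjusted p = 0.016). These 2 paralogs had opposite signs with no overlap between groups, while *Tead4* was low and its log2 fold-change was -0.31 (adjusted p = 0.12).

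Among regulators that act on YAP and TAZ, the LIM protein gene *Ajuba* fell. *Ajuba* (ENSMUSG00000022178, chr14:54567472-54577558, minus strand) encodes a scaffold that binds LATS kinases and restrains them, and that also sits at cell junctions. It was 61.6 and 52.7 CPM in CAF-vec cells and 37.4, 34.3 and 35.4 CPM in CAF-200 cells. All CAF-200 samples were lower, at 0.625 of the CAF-vec mean (57.2 ± 6.31 CPM against 35.7 ± 1.57 CPM, mean ± SD, n = 2 and 3). The log2 fold-change was -0.67 (SE 0.10, 95% interval -0.92 to -0.41, limma adjusted p = 0.0088). By size of fall, *Ajuba* ranked 1389 among the 12175 tested genes. The adjusted p of *Ajuba* lay just under the threshold of 0.01 and passed it without either CAF-vec sample (at most 0.0010), but not in fits on 2 CAF-200 samples, with 0.045 without replicate 1, 0.054 without replicate 2 and 0.057 without replicate 3, or with no filter on low values (0.013) or no variance trend (0.011).

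The LIM proteins closest to *Ajuba* did not pass the test. *Limd1*, which also binds LATS kinases, overlapped between the groups (log2 fold-change -0.13, adjusted p = 0.43). *Wtip* was lower in every CAF-200 sample, with 74.2 and 58.6 CPM in CAF-vec cells and 51.8, 44.8 and 46.1 CPM in CAF-200 cells (log2 fold-change -0.47, adjusted p = 0.045). The ratio of *Ajuba* to *Limd1* CPM was 2.18 and 2.34 in the CAF-vec samples and 1.57, 1.54 and 1.55 in the CAF-200 samples. *Ajuba* was thus lower relative to its paralog as well, although that ratio was not tested.

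*Lats2* (ENSMUSG00000021959, chr14:57689662-57758388, minus strand) encodes a kinase that inactivates YAP and is itself induced by YAP. It was 62.6 and 65.1 CPM in CAF-vec cells and 52.1, 50.7 and 53.0 CPM in CAF-200 cells. Every CAF-200 sample was lower, but the log2 fold-change of -0.30 (SE 0.08) did not pass the test with limma (adjusted p = 0.040). It passed without either CAF-vec sample (adjusted p = 0.0065 without replicate 1 and 0.0099 without replicate 2), and was -0.18 after quantile normalization (adjusted p = 0.19). *Lats2* shares exonic sequence on the same strand with the annotated gene *Gm49361*, so reads of the 2 could be split between them. Its paralog *Lats1* was 45.9 and 57.6 CPM in CAF-vec cells and 40.4, 41.1 and 41.0 CPM in CAF-200 cells (log2 fold-change -0.33, adjusted p = 0.082). The ratio of *Lats2* to *Lats1* CPM overlapped between the groups, from 1.13 to 1.36 in CAF-vec samples and from 1.23 to 1.29 in CAF-200 samples.

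*Amotl2* (ENSMUSG00000032531, chr9:102716672-102733418, plus strand) encodes a scaffold of the angiomotin family that retains YAP in the cytoplasm and whose gene is a YAP target. It was 862 and 504 CPM in CAF-vec cells and 404, 382 and 365 CPM in CAF-200 cells. *Amotl2* had the most negative log2 fold-change of the 10 genes, -0.78, yet the CAF-vec samples differed from each other 1.71-fold. With a 95% interval of -1.35 to -0.21, the difference did not pass the test (limma adjusted p = 0.051). Leaving out CAF-vec replicate 1 gave -0.39 (adjusted p = 0.0043) and leaving out replicate 2 gave -1.17 (adjusted p = 1.7e-05). The related scaffold genes *Amot* and *Amotl1* had log2 fold-changes of -0.14 and -0.02 and did not pass the test.

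**Figure D2:**
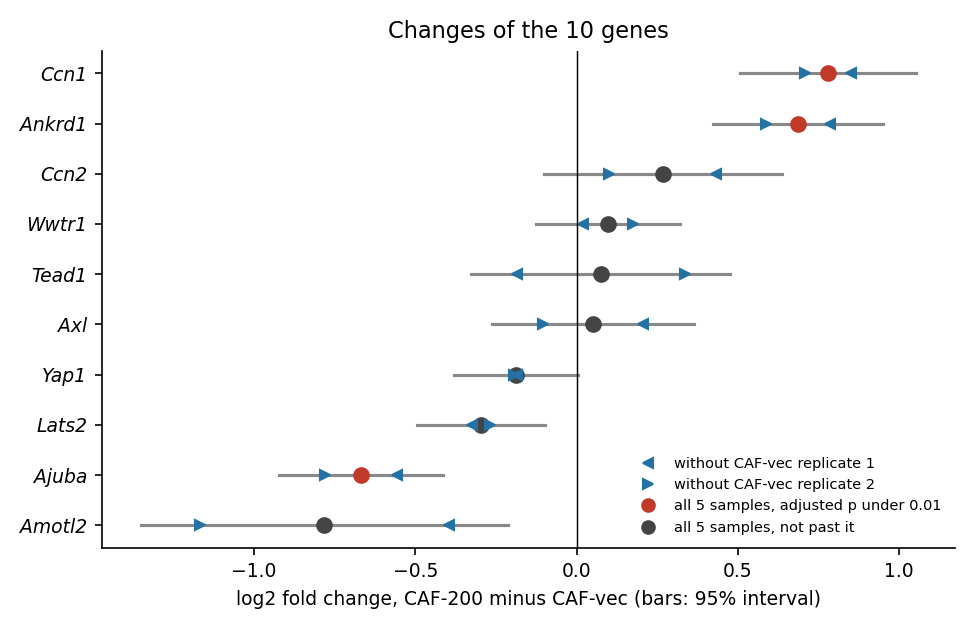
Log2 fold-change of each of the 10 genes (CAF-200 minus CAF-vec, dots, red where the adjusted p was under 0.01) with its 95% interval as a bar, and the value after leaving out either CAF-vec sample as triangles. *Amotl2* spans -1.17 to -0.39 with the control sample used, and *Axl* and *Tead1* cross 0, whereas *Ccn1*, *Ankrd1* and *Ajuba* keep their sign.

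Of the 4 classical targets of YAP among the 10 genes, *Ccn1* and *Ankrd1* rose, and *Ccn2* and *Axl* did not pass the test. *Ccn1* (formerly *Cyr61*, ENSMUSG00000028195, chr3:145646976-145649981, minus strand) encodes a secreted matricellular protein that binds integrins. It was 666 and 603 CPM in CAF-vec cells and 1100.0, 1049 and 1116 CPM in CAF-200 cells. All CAF-200 samples were higher, at 1.71 times the CAF-vec mean (635 ± 44.3 CPM against 1088 ± 34.8 CPM, mean ± SD, n = 2 and 3). The log2 fold-change was 0.78 (SE 0.11, 95% interval 0.51 to 1.05, limma adjusted p = 0.0075). By size of rise, *Ccn1* ranked 719 among the tested genes. Its log2 fold-change stayed between 0.71 and 0.88 in the 13 alternative fits, but its call did not hold in fits on 2 CAF-200 samples (adjusted p = 0.053 without replicate 1, 0.050 without replicate 2 and 0.056 without replicate 3) or with no filter on low values (0.013).

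*Ankrd1* (ENSMUSG00000024803, chr19:36111961-36120099, minus strand) encodes a muscle ankyrin repeat protein found in the nucleus and the sarcomere. It was 223 and 194 CPM in CAF-vec cells and 336, 318 and 351 CPM in CAF-200 cells. All CAF-200 samples were higher, at 1.61 times the CAF-vec mean (208 ± 20.2 CPM against 335 ± 16.7 CPM, mean ± SD, n = 2 and 3). The log2 fold-change was 0.69 (SE 0.11, 95% interval 0.42 to 0.95, limma adjusted p = 0.0089), and *Ankrd1* ranked 890 by size of rise. The log2 fold-change ranged from 0.59 to 0.78 in the alternatives, and the call ended in fits on 2 CAF-200 samples (adjusted p = 0.055, 0.049 and 0.060 without replicates 1, 2 and 3), with no filter on low values (0.013) and with no variance trend (0.010). Its relative *Ankrd23* was lower in every CAF-200 sample without passing the test (log2 fold-change -0.54, adjusted p = 0.036). *Ankrd2* was under the filter, with at most 0.101 CPM in any sample.

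*Ccn2* (formerly *Ctgf*, ENSMUSG00000019997, chr10:24595442-24598683, plus strand) encodes connective tissue growth factor, a matricellular protein known from fibrosis. It was 696 and 553 CPM in CAF-vec cells and 739, 685 and 821 CPM in CAF-200 cells. CAF-200 replicate 2 lay below CAF-vec replicate 1, so the groups overlapped, and the log2 fold-change of 0.27 (95% interval -0.10 to 0.64) did not pass the test with limma (adjusted p = 0.21). Without CAF-vec replicate 1 it was 0.43 and passed (adjusted p = 0.0098), and without replicate 2 it was 0.10. *Ccn2* and an annotated transcript on the opposite strand, *Gm15270*, overlap in exons, as do *Yap1* and *Gm20416*. The use of strand in the counting is not given in the sources used here, so reads of these pairs cannot be told apart.

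The ratio of *Ccn1* to *Ccn2* CPM did not overlap between the groups. It was 0.957 and 1.09 in the CAF-vec samples and 1.49, 1.53 and 1.36 in the CAF-200 samples. *Ankrd1* over *Ccn2* was 0.320 and 0.351 against 0.455, 0.463 and 0.427, whereas *Ccn1* over *Ankrd1* was 2.99 and 3.11 against 3.27, 3.30 and 3.18. Relative to *Ccn1* and to *Ankrd1*, *Ccn2* was lower in every CAF-200 sample, and the ratio of *Ccn1* to *Ankrd1* was slightly higher. These ratios do not depend on the scaling of a sample and were not tested.

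The other Ccn genes were *Ccn4* and *Ccn5*, which overlapped between the groups (log2 fold-changes -0.03 and -0.26), and *Ccn3* and *Ccn6*, which were under the filter, with *Ccn6* listed at 0 in all samples.

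*Axl* (ENSMUSG00000002602, chr7:25757273-25788705, minus strand) encodes a receptor tyrosine kinase of the TAM family, whose ligand is the product of *Gas6*. It was 635 and 513 CPM in CAF-vec cells and 575, 591 and 608 CPM in CAF-200 cells. The CAF-200 values lay between the CAF-vec values. The log2 fold-change was 0.05 with a 95% interval of -0.26 to 0.36 (limma adjusted p = 0.77), and it was -0.10 without CAF-vec replicate 2. Of the other TAM genes, *Tyro3* overlapped between the groups and *Mertk* was under the filter, while the ligand genes *Gas6* and *Pros1* were higher in every CAF-200 sample without passing the test (log2 fold-changes 0.24 and 0.38, adjusted p = 0.18 and 0.045).

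Since TEAD factors bind GGAATG, these letters were sought on both strands in the 250 bases before the annotated start, from RefSeq (GRCm38.p6). *Ccn2* and *Tead1* had no promoter entry. All 10 genes had been chosen by name as pathway members or targets. Of the 8 genes with a promoter entry, 7 held the letters (*Yap1*, *Wwtr1*, *Ajuba*, *Amotl2*, *Ccn1*, *Ankrd1* and *Axl*), and *Lats2* did not. Of all 27025 genes with an entry, 14.4% held them, as did 12.6% of the 32851 promoters. Among the other genes of the 22-gene target list it was 2 of 10, and among other Hippo pathway genes it was 11 of 39. TGANTCA, the letters bound by AP-1, was in none of the 10 promoters of these 8 genes and in 6.75% of all promoters. The promoters of the 3 genes that rose or fell and of *Amotl2* are shown, 5′ to 3′ on the strand of the gene, with the TEAD letters in capitals (CATTCC is GGAATG on the other strand).
*Ccn1*, chr3:145649986-145650235, minus strand: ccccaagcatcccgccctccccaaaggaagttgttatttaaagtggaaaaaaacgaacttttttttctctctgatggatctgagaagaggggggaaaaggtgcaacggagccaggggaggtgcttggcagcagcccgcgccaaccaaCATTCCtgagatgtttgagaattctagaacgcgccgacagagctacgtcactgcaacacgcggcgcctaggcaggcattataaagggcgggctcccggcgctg
*Ankrd1*, chr19:36119845-36120094, minus strand: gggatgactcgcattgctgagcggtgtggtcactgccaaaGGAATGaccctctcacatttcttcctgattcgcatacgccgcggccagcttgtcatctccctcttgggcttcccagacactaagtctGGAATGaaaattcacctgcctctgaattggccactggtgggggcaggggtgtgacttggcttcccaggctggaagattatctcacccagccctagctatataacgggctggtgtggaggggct
*Ajuba*, chr14:54577662-54577911, minus strand: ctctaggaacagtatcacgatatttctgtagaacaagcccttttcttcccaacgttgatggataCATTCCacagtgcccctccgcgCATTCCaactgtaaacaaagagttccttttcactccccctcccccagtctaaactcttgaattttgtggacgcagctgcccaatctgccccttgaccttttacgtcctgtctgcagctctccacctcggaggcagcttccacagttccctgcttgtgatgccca
*Amotl2*, chr9:102717554-102717803, plus strand: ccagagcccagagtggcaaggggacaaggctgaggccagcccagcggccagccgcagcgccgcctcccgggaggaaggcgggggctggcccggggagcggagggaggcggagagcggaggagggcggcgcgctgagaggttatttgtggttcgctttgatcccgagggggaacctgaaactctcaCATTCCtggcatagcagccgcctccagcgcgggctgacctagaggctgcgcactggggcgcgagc

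Distances are from the RefSeq start, which can differ from the end of the GENCODE gene given above. For *Amotl2* and *Ankrd1* the RefSeq start lies inside the GENCODE gene, and so do the windows shown. The letters lay 103 bases before the RefSeq start in *Ccn1*, 123 and 210 bases before it in *Ankrd1*, 164 and 186 bases in *Ajuba* and 65 bases in *Amotl2*. They were thus held by genes that rose, by the gene that fell and by genes that did not pass the test. In *Axl*, *Yap1* and *Wwtr1* they lay 233, 141 and, from 2 annotated starts, 136 or 170 bases before the start. A match of letters is no measured binding.

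Targets beyond the 10 genes were taken from a list of 22 genes often used as a readout of YAP and TAZ, which includes *Ccn1*, *Ccn2*, *Ankrd1*, *Axl*, *Amotl2* and *Lats2*. Of these 22 genes 19 were tested, 3 rose, 1 fell and 15 did not pass the test, beside 4.45% that rose and 5.57% that fell among all tested genes. Their median log2 fold-change was 0.03. *F3*, the gene of tissue factor that starts blood clotting, rose, with a larger log2 fold-change than *Ccn1* or *Ankrd1*. It was 92.8 and 110 CPM in CAF-vec cells and 259, 273 and 221 CPM in CAF-200 cells (log2 fold-change 1.30, SE 0.13, limma adjusted p = 0.0036). *Tgfb2*, which encodes the growth factor TGF-β2, fell. It was 23.9 and 22.5 CPM in CAF-vec cells and 8.70, 9.45 and 7.89 CPM in CAF-200 cells (log2 fold-change -1.37, SE 0.11, adjusted p = 0.0025). The groups did not overlap for either gene, and both calls ended in fits on 2 CAF-200 samples (adjusted p = 0.029, 0.028 and 0.027 for *F3* and 0.022, 0.022 and 0.026 for *Tgfb2* without replicates 1, 2 and 3). The 3'-UTR of *Tgfb2* held 2 miR-200a matches and that of *F3* none.

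At an adjusted p under 0.05, 4 of the 19 tested targets were higher and 4 lower, beside 11.9% and 18.6% of all tested genes. Those past 0.05 but not 0.01 were *Foxf2*, a transcription factor gene (log2 fold-change 0.55), and *Asap1*, *Arhgef17* and *Lats2* (-0.60, -0.46 and -0.30). In all, 5 targets were higher and 8 lower in every CAF-200 sample, and 6 overlapped, counts near the 24.3% higher and 37.3% lower of all tested genes. *Igfbp3*, *Fjx1* and *Nt5e* were under the filter, with at most 0.0916, 0.560 and 0.499 CPM in any sample. Targets thus lay on both sides of 0, with both directions also among the genes that passed the test.

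**Figure D3:**
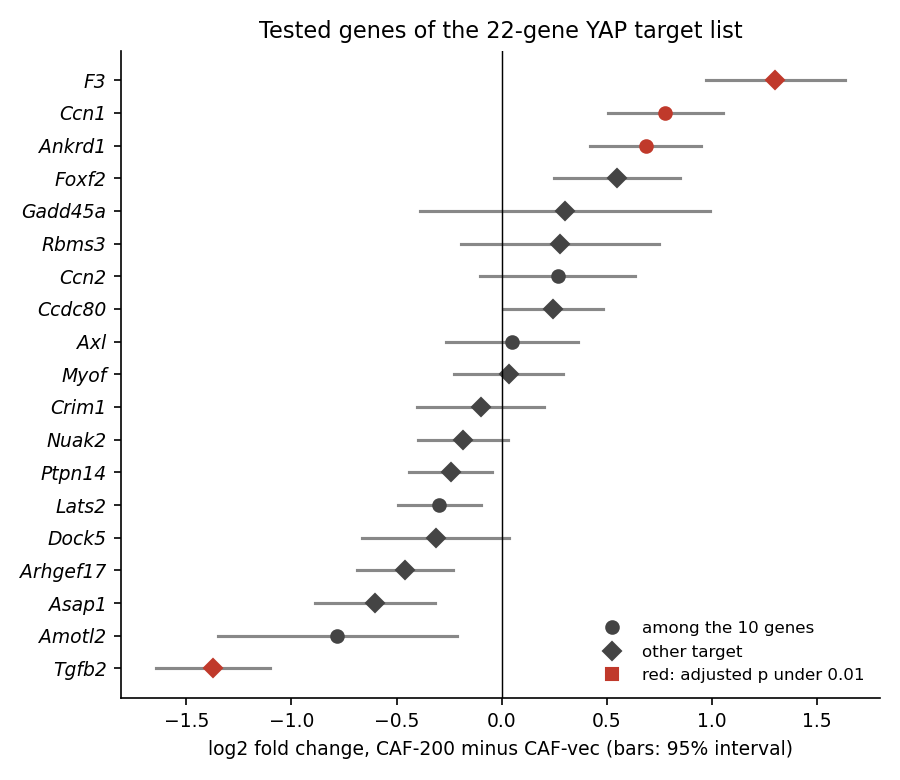
Log2 fold-change (CAF-200 minus CAF-vec) with its 95% interval for the 19 tested genes of the 22-gene YAP target list, circles for those among the 10 genes, diamonds for the others and red for an adjusted p under 0.01. Values run from -1.37 for *Tgfb2* to 1.30 for *F3*, with *Ccn1* and *Ankrd1* next to *F3* and *Amotl2* next to *Tgfb2*.

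The other genes of the Hippo pathway numbered 50, of which 46 were tested. Of these 46, 1 fell, 0 rose and 45 did not pass the test with limma, beside 5.57% that fell and 4.45% that rose among all tested genes. At an unadjusted p under 0.05, 15 were lower and 3 higher, beside 27.6% lower and 17.3% higher of all tested genes. At an adjusted p under 0.05, 9 were lower and 1 higher, beside 18.6% lower and 11.9% higher of all tested genes. The lower share at the adjusted threshold was thus near that of all genes. Their log2 fold-changes were negative for 37 genes and positive for 9, with a median of -0.19, beside 7097 negative and 5078 positive among all 12175 tested genes. In every CAF-200 sample 24 were lower and 6 higher, and 16 overlapped, beside 37.3% lower and 24.3% higher of all tested genes.

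The gene that fell was *Wwc1*, which encodes KIBRA, an activator of LATS kinases. It was 45.3 and 33.8 CPM in CAF-vec cells and 20.8, 20.1 and 19.8 CPM in CAF-200 cells (log2 fold-change -0.93, SE 0.14, limma adjusted p = 0.0082). The call ended without CAF-200 replicate 1 (adjusted p = 0.043), replicate 2 (0.048) or replicate 3 (0.052), and with no filter on low values (0.014). Among the 19 kinases and adaptors, *Lats2* included, the median log2 fold-change was -0.30 and 15 values were negative, beside 7097 of all 12175 tested genes. Besides *Lats2*, those past an adjusted p of 0.05 but not 0.01 were *Taok2*, *Taok3* and *Mink1*, kinases that act above LATS (log2 fold-changes -0.51, -0.43 and -0.36). The MST kinase genes did not pass the test, with log2 fold-changes of 0.19 for *Stk3* and -0.24 for *Stk4*, nor did *Sav1* (-0.00) and *Nf2* (-0.17), their adaptor and upstream activator.

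The STRIPAK complex, a phosphatase complex that switches off MST kinases, had 9 tested genes. Of these, 8 had a negative log2 fold-change, beside 7097 of all 12175 tested genes, and none rose or fell. The complex members *Slmap* and *Strn4* had log2 fold-changes of -0.73 and -0.62 (limma adjusted p = 0.017 and 0.043). Genes that inhibit and genes that activate the cascade were thus both among those with lower values. Among 4 angiomotin family and PTPN14 scaffolds the median was -0.19, and among 4 genes of YAP turnover it was -0.07, with no gene past the test in either group. Of 7 upstream cadherin and polarity genes 5 were tested. The log2 fold-change of *Fat4*, an atypical cadherin gene, was -0.46 (limma adjusted p = 0.044). Its relative *Fat1* was higher in every CAF-200 sample without passing the test (log2 fold-change 0.31, adjusted p = 0.059). *Dchs1* and *Dchs2* were under the filter. *Scrib* was 90.1 CPM in CAF-vec replicate 1 and 33.5 to 37.2 CPM in the other 4 samples. The VGLL cofactors, which compete with YAP for TEADs, were represented by *Vgll3* and *Vgll4*, neither of which passed the test, while *Vgll1* was listed at 0 in all samples and *Vgll2* was under the filter.

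**Figure D4:**
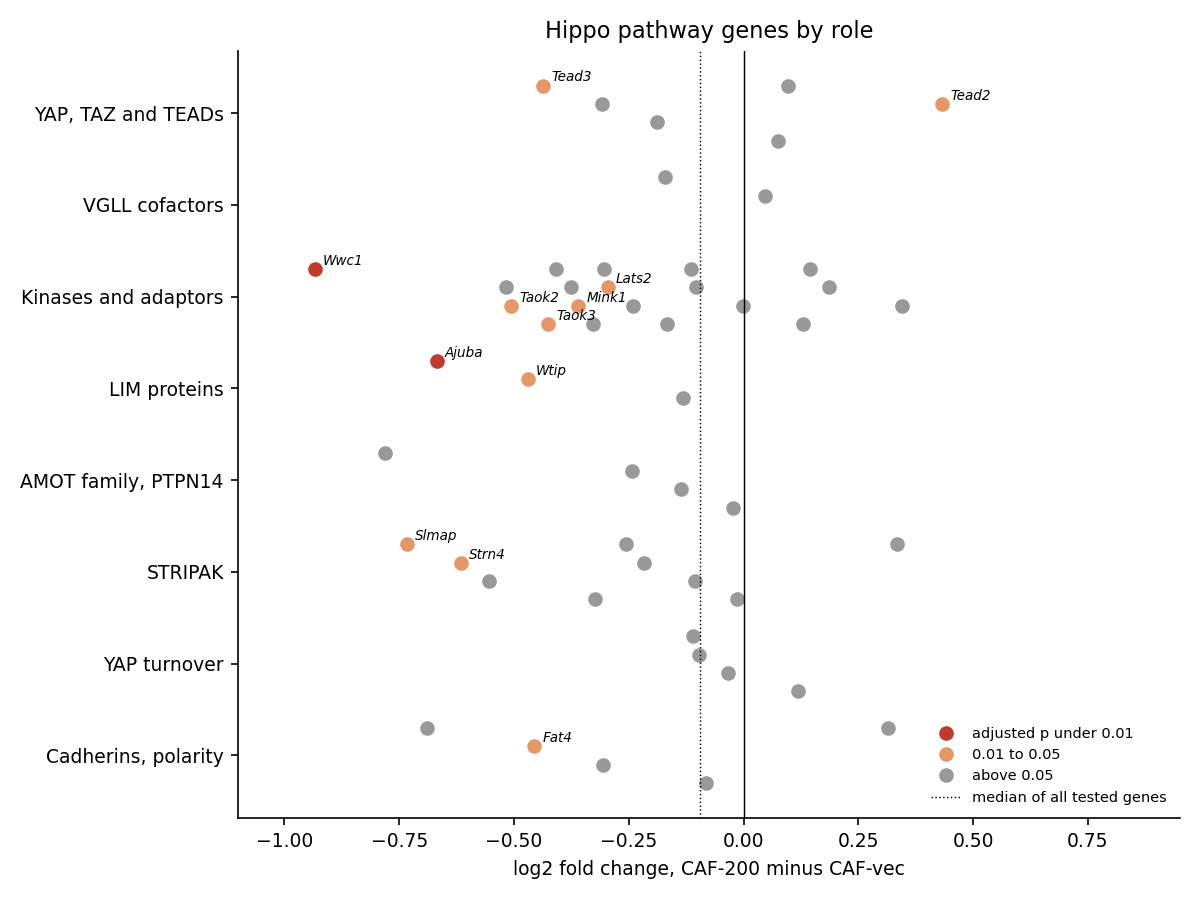
Log2 fold-change (CAF-200 minus CAF-vec) of each tested Hippo pathway gene, grouped by role, colored by adjusted p, with a dotted line at the median of all tested genes (-0.09). Points are spread vertically only to separate them. *Wwc1* and *Ajuba* are past 0.01, most kinases, adaptors and STRIPAK genes lie left of 0, and the TEAD genes lie on both sides.

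Levels were compared between genes as CPM per kilobase of annotated exon, with the exons of all annotated transcripts of a gene joined. The order of genes depends on that length. The 4 classical targets and *Amotl2* lay far above the other genes. *Ccn1* was highest in every sample, at 299 to 330 CPM per kilobase in CAF-vec cells and 520 to 553 in CAF-200 cells, followed by *Ccn2* at 193 to 287 over all 5 samples. *Axl* followed at a median of 118 CPM per kilobase, *Ankrd1* at 110.0 and *Amotl2* at 64.2. The order of these depended on the group. In CAF-vec cells *Amotl2*, at 80.1 to 137 CPM per kilobase, lay above *Ankrd1*, at 67.3 to 77.2, and overlapped *Axl*, whereas in CAF-200 cells *Ankrd1*, at 110.0 to 122, lay above *Amotl2*, at 58.0 to 64.2, and overlapped *Axl*.

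The other genes lay in a lower band. Medians over the 5 samples were 10.3 CPM per kilobase for *Ajuba*, 8.90 for *Yap1*, 8.29 for *Wwtr1*, 7.60 for *Lats2* and 4.21 for *Tead1*. *Lats2* lay above *Wwtr1* in CAF-vec cells, at 8.98 to 9.34 against 7.45 to 8.31 CPM per kilobase, and below it in CAF-200 cells, at 7.28 to 7.60 against 8.28 to 8.72. *Yap1* lay above *Wwtr1* in every CAF-vec sample, at 10.0 to 10.1 against 7.45 to 8.31 CPM per kilobase, but the ranges overlapped in CAF-200 cells, at 8.69 to 8.90 against 8.28 to 8.72. *Ajuba* lay at 14.5 to 16.9 CPM per kilobase in CAF-vec cells and 9.41 to 10.3 in CAF-200 cells, above *Yap1* in both. In CPM, not divided by length, *Yap1* lay above *Ajuba*, and *Yap1* and *Lats2* lay above *Wwtr1*, in every sample. Among the TEAD genes, *Tead2* was the most abundant, with a median of 18.8 CPM per kilobase, followed by *Tead3* at 7.62, *Tead1* at 4.21 and *Tead4* at 1.20.

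**Figure D5:**
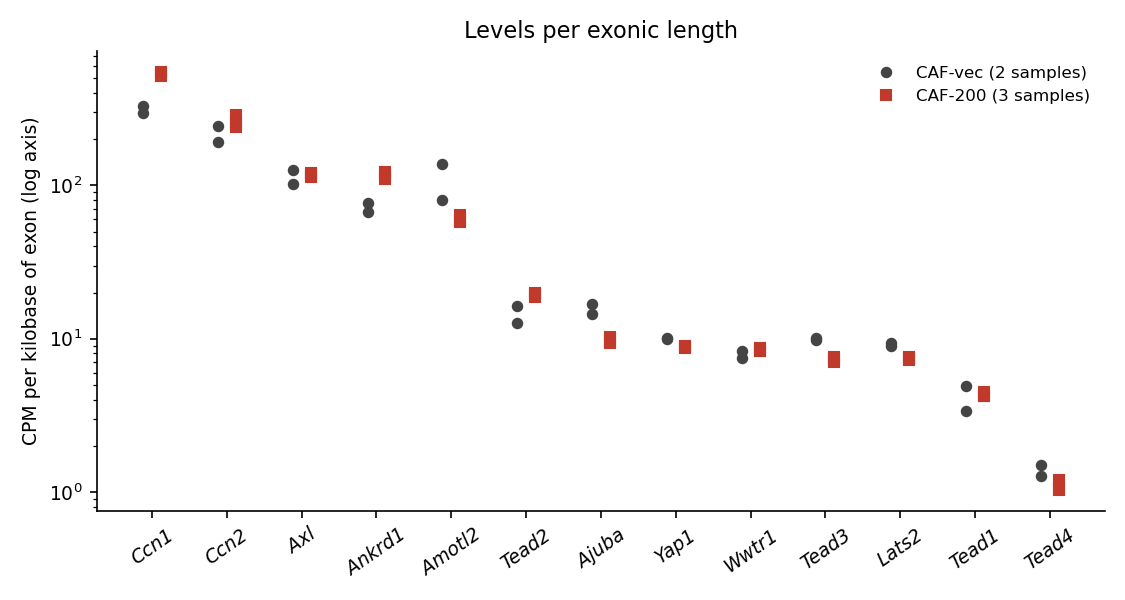
Level in CPM per kilobase of annotated exon (log axis) of the 10 genes and of *Tead2*, *Tead3* and *Tead4*, with CAF-vec samples as circles and CAF-200 samples as squares. *Ccn1* to *Amotl2* lie at 58.0 or above in every sample, and the other genes lie at 19.8 or below.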

How the data were processed

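RNA of 5 samples of murine lung CAFs was sequenced as TruSeq stranded mRNA libraries (2 CAF-vec, 3 CAF-200). The submitters' processing notes name FastQC, cutadapt, Trimmomatic, STAR, RSEM and edgeR and the build GRCm38 (mm10), with no versions. The authors deposited normalized CPM values in a table named for TMM. Columns summed to 999956 to 1000111 CPM, whole reads could not be recovered, so the depth per sample is unknown, its effect on precision cannot be given and no count test was run. All 5 sample columns were used. The study's methods state RNA in triplicate, and 2 CAF-vec samples were analysed here.

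CAF-200 and CAF-vec values were compared on log2(CPM + 0.5) by limma's lmFit and trended eBayes (limma 3.58.1, R 4.3.3). A gene was tested if it reached 0.5 CPM in 2 samples or more, and p-values were adjusted by Benjamini-Hochberg over all 12175 such genes. The pseudocount lowers the fold-changes of low genes. Calls used an adjusted p under 0.01, with 0.05, and a log2 fold-change beyond 1, as further thresholds. The procedure was tested on simulated data with known changes and the same spread in both groups. That test therefore does not cover the larger difference between the CAF-vec samples. Intervals are 95% intervals of the fit. Names, coordinates, exonic lengths and 3'-UTRs came from GENCODE M21 (GRCm38), which named 21795 of the 21835 genes, and promoters and miRNAs from RefSeq. Proteins and the miRNAs' own levels were not analysed here. The 10 genes and the gene lists were chosen with earlier results of these data known. By rule, the text names the 10 genes, up to 4 genes of each list with an adjusted p under 0.01 by size of log2 fold-change, those that could not be tested, targets beyond a log2 fold-change of 1, and Zeb1 and Zeb2. Other genes named, such as paralogs of the 10 genes and genes with an adjusted p between 0.01 and 0.05, were added after their values were seen. Alternatives were other pseudocounts, filters and scalings, no variance trend, a replicate block and leaving out each sample. Scripts ran in Python 3.11.15.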

Additional observations from a re-analysis of the deposited data

How the results depend on the processing

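Among the 10 genes and F3, Tgfb2 and Wwc1, directions were kept in all 13 alternative fits except for Axl (-0.10 without CAF-vec replicate 2, 0.21 without replicate 1) and Tead1 (-0.19 without CAF-vec replicate 1, 0.34 without replicate 2). Other pseudocounts, the stricter filter, quantile normalization and centring on the sample median moved no call of these 13 genes. Of the 10 genes, 0 rose and 0 fell with no filter on low values, 1 rose and 0 fell with no variance trend, 0 rose and 0 fell when a log2 fold-change beyond 1 was also required, and 2 fell at an adjusted p under 0.05. Of the 22 targets, 1 rose with no filter, 1 rose with a fold beyond 1, and 4 fell at 0.05. Of the other Hippo pathway genes, 0 fell with no filter or with a fold beyond 1, and 9 fell and 1 rose at 0.05. Leaving out 1 sample at a time gave 0 to 3 fallen and 0 to 3 risen among the 10 genes, 0 to 6 and 0 to 6 among the targets, and 0 to 14 and 0 to 5 among the other Hippo pathway genes. The low ends came without a CAF-200 sample, when 0 of all tested genes fell and at most 1 rose (limma, with 485 to 724 lower and 435 to 536 higher at an adjusted p under 0.05). The high ends came without a CAF-vec sample, when 1994 to 3766 fell and 1598 to 2329 rose and the lone CAF-vec sample is assumed to vary like the CAF-200 samples. Centring gave 543 lower and 720 higher calls over all tested genes and quantile normalization 609 and 714, beside 678 and 542 as reported, and moved the median log2 fold-change from -0.09 to 0.00 and -0.02. The replicate numbers are shared by only 2 pairs (correlations of deviations 0.249 and 0.134), and nothing in the labels ties them to a common batch. With a replicate block, 0 of the 10 genes, 0 of the 22 targets and 0 of the other Hippo pathway genes rose or fell. Over all tested genes that fit gave 70 lower and 101 higher calls. Its limma adjusted p was 0.073 for Ccn1, 0.065 for Ankrd1, 0.045 for Ajuba, 0.028 for Wwc1, 0.0103 for F3 and 0.0118 for Tgfb2. The depth is unknown, and with 2 control samples the difference between them limits the values, those of Amotl2 and Tead1 among others.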
